A study of Mus musculus with 20 samples.

Results

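Pancreatic tumours with a floxed Arf gene were compared with pancreatic tumours with a floxed Trp53 gene across all genes. The comparison takes 10 of the 20 samples of the series, the 5 tumours labelled KAT and the 5 labelled KPT, chosen by these labels. All the mice carry the same oncogene allele, which stays silent until Cre removes a stop cassette. They also share a homozygous tdTomato reporter at Rosa26 (Rosa26LSL-tdTomato/LSL-tdTomato) and Ptf1aCreER, a tamoxifen-activated Cre made in acinar cells, which secrete digestive enzymes. KPT mice carry Trp53fl/fl in addition, and KAT mice carry Arf-fl/fl, which the series also writes Cdkn2A-Arf fl/fl. Tamoxifen was given by mouth at 5 mg daily over 3 days when the mice were 8 to 10 weeks old, and they were kept until they were morbid. Whole tumours were sequenced, so connective tissue, vessels and immune cells give RNA beside the cancer cells, and fewer cells of a type cannot be told apart from less RNA per cell. Cells that kept the floxed alleles give reads as well. A further 5 tumours, KPAT, carry both floxed genes. They entered the estimate of the spread, and their values are given beside a few results. The KT tumours, with neither gene floxed, are not analysed here.

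ARF is a small nucleolar protein encoded by Cdkn2a, which also encodes the cyclin-dependent kinase inhibitor INK4A through another first exon. Oncogenic signalling raises ARF, and ARF binds MDM2, the ubiquitin ligase that marks p53 for destruction. p53 then accumulates and switches on genes for cell cycle arrest, DNA repair and apoptosis. Losing ARF leaves the p53 protein present but poorly stabilised, while losing Trp53 removes the transcription factor itself. The comparison sets tumours floxed for one of these genes of a shared pathway against tumours floxed for the other.

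KPT libraries held 16622901 to 23039354 reads assigned to genes and KAT libraries 16704627 to 22124495. Levels of genes are given in deposited units, which are reads divided by a factor for each library, either for tumours 1 to 5 in order or as mean ± SD (n = 5 in each group). Log2 differences and their SE are KAT minus KPT on the scale of log2(normalized count + 1), for which deposited units were multiplied by 19.5 to bring them to the size of read counts, and they understate the change of low genes. A gene was called where limma gave an adjusted p below 0.05. The labels number the tumours separately, and p-values measure the spread between them. Library names of the groups fall in separate ranges, so anything that followed those names cannot be told apart from genotype. Xist was above 500 deposited units in 2 of 5 tumours of each group, so the sexes were balanced. Some tumours stood apart in cell content. The level of a gene list is the mean over its members of log2(normalized count + 1). For intestinal genes it was 11.22, 7.64, 8.20, 7.04 and 8.09 in KPT 1 to 5 and 10.26, 6.19, 6.40, 6.49 and 6.50 in KAT 1 to 5, so KPT 1 and KAT 1 were the highest of their groups. For acinar genes KAT 1 was the highest of the 10 tumours at 9.53, the others lying between 3.79 and 7.08. The ductal epithelium list, which marks pancreatic ductal adenocarcinoma, was well expressed in all of them, at 12.42 to 13.01 in KPT and 11.66 to 12.49 in KAT.

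The floxed genes were examined first. Trp53 (ENSMUSG00000059552, chr11:69580359-69591873 in GRCm38) stood at 22.7, 23.5, 26.3, 26.1 and 22.8 in KPT and 127, 111, 99, 138 and 148 in KAT. The KAT tumours all lay far above the KPT tumours (log2 difference 2.35, SE 0.15, adjusted p = 3.10e-07). In KPAT, where Trp53 is floxed as well, it stood at 57.2, 44.7, 32.9, 36.6 and 38.3. Cdkn2a (ENSMUSG00000044303, chr4:89274471-89294653) stood at 308, 304, 216, 322 and 335 in KPT and 611, 689.9, 516, 150.0 and 161 in KAT. KAT 1 to 3 lay above every KPT tumour and KAT 4 and 5 below every one, so the groups overlapped (log2 difference 0.25, SE 0.45, adjusted p = 0.696), and the sign turned with KPT 3 and KAT 2 both left out (-0.10). Reads of a gene are summed over all its exons here, so Arf and Ink4a transcripts are not separated, and the labels do not name the deleted exons, so recombination at Arf could not be checked from these values. Myc, the proliferation-driving transcription factor, was also lowest in the same pair of KAT tumours within its group, at 124, 181, 82.5, 57 and 28.2, and 49.5, 45.7, 68.4, 104 and 77.4 in KPT 1 to 5 (log2 difference 0.25, SE 0.39, adjusted p = 0.652), and its sign turned without KAT 2 (-0.05).

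**Figure D1:**
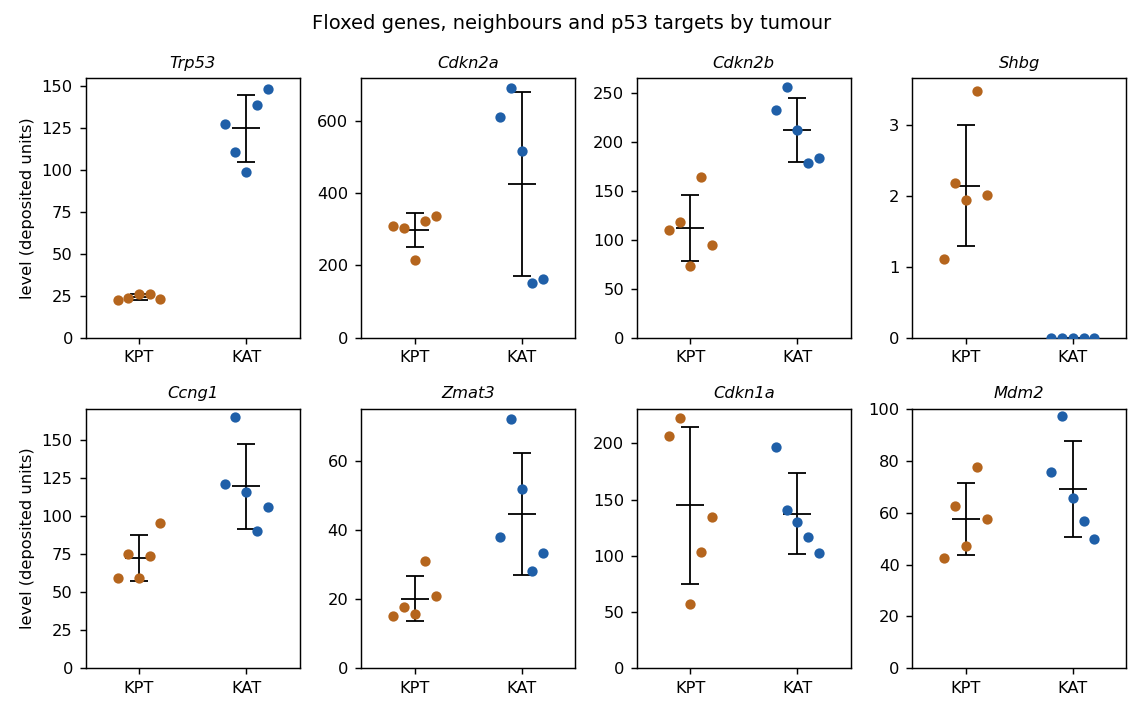
Level of 8 genes in each tumour, in deposited units, with 5 KPT and 5 KAT tumours per panel as points and the mean ± SD as bars. Trp53, Cdkn2b and Shbg separate the groups without overlap, while Cdkn2a in KAT splits into 3 high and 2 low tumours.

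Genes beside the floxed loci were followed because they lie beside a recombining allele. Cdkn2b encodes INK4B, an inhibitor of CDK4 and CDK6, and lies next to Cdkn2a on chromosome 4. It stood at 110.2, 118, 73.2, 165 and 94.8 in KPT and 233, 256, 212, 179 and 184 in KAT, higher in all 5 KAT tumours (log2 difference 0.96, SE 0.25, adjusted p = 0.0116). With KPT 3 and KAT 2 both left out its adjusted p was 0.0574. The 16 genes taken around Cdkn2a had 13 tested, of which 2 were higher and 3 lower, against 15.6% and 13.3% of all genes tested. Hacd4, a very-long-chain fatty acid enzyme, was the other higher gene (log2 difference 1.03, SE 0.24, adjusted p = 0.00664). Rps6, a ribosomal protein (-0.61), Mllt3, a chromatin reader (-0.55), and Haus6, a subunit of the spindle complex augmin (-0.41), were lower on the log2 scale. Haus6 was not called without KPT 4 or 5 or KAT 3, 4 or 5 or with KPAT left out of the fit (adjusted p up to 0.0666).

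Of 24 genes tested around Trp53 on chromosome 11, 3 were higher and 4 lower in KAT. That is 29.2% in all, near the 28.9% of all genes tested. Shbg, which encodes the sex hormone-binding globulin (chr11:69614804-69617905), stood at 1.1, 2.17, 1.94, 3.48 and 2.0 in KPT and 0, 0, 0, 0 and 0 in KAT. No KAT library held a read of it. Against the limit of 3 reads a library, its mean in KPT was at least 13-fold higher. In KPAT it stood at 0.707, 1.11, 1.85, 1.14 and 1.4. The use of strand in counting is not given in the sources used here, so reads of overlapping neighbours cannot be told apart. Sat2, a polyamine acetyltransferase of the same stretch, stood at 5.22, 9.53, 12.1, 14.1 and 9.4 in KPT and 2.11, 6.53, 6.42, 4.22 and 5.11 in KAT, lower in KAT with overlap (log2 difference -1.07, SE 0.36, adjusted p = 0.0387), and was not called without KPT 2, 3, 4 or 5 or KAT 1, 4 or 5 or without both KPT 3 and KAT 2 (adjusted p up to 0.0908). The translation factor genes Eif5a (-0.62) and Eif4a1 (-0.41) were lower. Higher genes were Polr2a, the largest subunit of RNA polymerase II (0.39), the zinc finger gene Zbtb4 (0.53) and Acap1, a GTPase-activating protein of leukocytes (1.35). The Eif4a1 call ended under quantile normalization (log2 difference -0.18, adjusted p = 0.298), and the Acap1 call without KPT 1, 2, 3 or 4 or KAT 1, 3, 4 or 5, under quantile normalization or without both KPT 1 and KAT 1 (adjusted p up to 0.143).

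Counts of 3 or more are given with the values that moved them by more than 1.5 times, and smaller counts where the text turns on them. Where no member of a list was called in a direction, at most 2 were under any alternative. The settings are those of the closing section, array weights giving less weight to tumours far from their group. p53 target genes were followed because their activator is floxed in one group only. Of 50 listed, 48 were tested, and 11 were higher and 4 lower in KAT, 31.2% in all. The same call was made for 28.9% of all genes tested, so the share of both directions together is near the background. By direction, 15.6% of all genes were higher and 13.3% lower. The level of the list was 8.88 to 9.21 in KPT and 9.25 to 9.49 in KAT, without overlap, and 9.15 to 9.25 in KPAT. The median log2 difference was 0.15, against 0.03 over all genes tested. The count of higher targets was 7 without KPT 3, and the count of lower targets 1 without KAT 4, and 2 without KAT 2 or 5 or without both KPT 1 and KAT 1. The higher targets included genes widely used as readouts of p53 activity. Ccng1, which encodes cyclin G1, a feedback regulator of MDM2, stood at 59.2, 74.9, 59.2, 73.5 and 95.7 in KPT and 121, 166, 116, 90.3 and 106 in KAT (log2 difference 0.72, SE 0.16, adjusted p = 0.00575). Zmat3, an RNA-binding protein that acts in p53 tumour suppression, stood at 15, 17.6, 15.7, 30.9 and 20.8 in KPT and 37.9, 72.2, 51.8, 28.2 and 33.3 in KAT (log2 difference 1.12, SE 0.24, adjusted p = 0.00403). For both genes the highest KPT tumour overlapped the lowest KAT tumour. Phlda3, an inhibitor of AKT, separated the groups, at 42.7, 36.7, 48.2, 44.7 and 29.9 in KPT and 61.7, 83.1, 90.7, 70.4 and 69.9 in KAT (log2 difference 0.90, SE 0.18, adjusted p = 0.00291). Eda2r, a gene of the TNF receptor family on chromosome X, stood at 0.853, 0.959, 0.432, 1.72 and 3.25 in KPT and 4.31, 4.45, 7.52, 6.18 and 9.23 in KAT, again without overlap (log2 difference 2.34, SE 0.44, adjusted p = 0.00181).

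Ak1, an adenylate kinase, had the smallest p of the list, at 13.1 to 21.4 in KPT and 32.9 to 48.3 in KAT (log2 difference 1.41, SE 0.21, adjusted p = 0.000423). Dglucy, a mitochondrial enzyme of D-glutamate, ran from 7.72 to 14.8 in KPT and 17 to 28.2 in KAT (log2 difference 0.99, SE 0.22, adjusted p = 0.00467). The exonuclease gene Aen was at 16.6 to 35.7 in KPT and 34.1 to 52 in KAT (log2 difference 0.70, SE 0.20, adjusted p = 0.0198). Aen was not called with KPT 1 and KAT 1 both left out (adjusted p = 0.0640). Higher by less stable calls were Zfp365 (1.10), Pltp, a phospholipid transfer protein (1.83), Trp53i11 (0.90) and Psrc1, a spindle protein (0.89). The call of Zfp365 ended without KPT 3 or KAT 2 or 5, under quantile normalization (log2 difference 0.61), with KPAT left out of the fit or without both KPT 3 and KAT 2 (adjusted p up to 0.206). That of Pltp ended without KPT 3 or 4 or KAT 3, 4 or 5 (adjusted p up to 0.0706) and that of Trp53i11 without KPT 3 or 4 or KAT 1 or 4 or without both KPT 3 and KAT 2 (adjusted p up to 0.0959). The Psrc1 call ended without KPT 2, 3 or 4 or KAT 1, 2, 3 or 5, under quantile normalization (log2 difference 0.53), with KPAT left out of the fit, with array weights, without both KPT 1 and KAT 1 or without both KPT 3 and KAT 2 (log2 difference 0.56) (adjusted p up to 0.242).

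The lower targets included genes of apoptosis. Pmaip1, which encodes the BH3-only protein NOXA, stood at 233, 226, 157, 94.8 and 129 in KPT and 65, 89.7, 86, 54.5 and 36.1 in KAT, with every KAT tumour below every KPT tumour (log2 difference -1.34, SE 0.34, adjusted p = 0.0107). Perp, a desmosome-associated protein, was at 156 to 208 in KPT and 85 to 168 in KAT (log2 difference -0.63, SE 0.18, adjusted p = 0.0187). Ckap2, a spindle protein, was at 8.95 to 22.8 in KPT and 2.66 to 10.1 in KAT (log2 difference -1.34, SE 0.43, adjusted p = 0.0307). Kitl, the ligand of the receptor KIT, was at 58.1 to 127 in KPT and 44 to 70.0 in KAT (log2 difference -0.76, SE 0.27, adjusted p = 0.0491). The call of Perp ended without KAT 4 or 5 (adjusted p up to 0.0523) and that of Ckap2 without KPT 1 or 5 or KAT 2, 3 or 4, with array weights, without both KPT 1 and KAT 1 or without both KPT 3 and KAT 2 (adjusted p up to 0.0858). The Kitl call ended without KPT 2, 3, 4 or 5 or KAT 1, 2, 4 or 5, with no minimum level, under quantile normalization, with a sex covariate, with edgeR, without both KPT 1 and KAT 1 or without both KPT 3 and KAT 2 (adjusted p up to 0.111). The best known targets did not pass. Cdkn1a, the gene of the cell cycle inhibitor p21, stood at 207, 223, 56.5, 103 and 135 in KPT and 196, 141, 129.6, 117 and 103 in KAT (log2 difference 0.05, SE 0.32, adjusted p = 0.924). Mdm2 stood at 42.5, 62.8, 47.1, 77.6 and 57.6 in KPT and 75.9, 97.6, 65.7, 57 and 49.9 in KAT (log2 difference 0.26, SE 0.19, adjusted p = 0.316). Bax, a pore-forming killer protein, was at 26.1 to 39.8 in KPT and 34.2 to 57 in KAT (log2 difference 0.36, SE 0.16, adjusted p = 0.104). In these 3 genes the tumours of the groups were intermixed, and the sign for Cdkn1a turned without KPT 3, KPT 4 or KAT 1 (log2 differences -0.25, -0.03 and -0.09).

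The upstream bases of the called targets were searched for the p53 response element, which is built of 2 adjacent half-sites, 20 bases in all. The C at the fourth and the G at the seventh position of each half-site had to be present, with no spacer between the half-sites, and up to 3 of the 20 bases could differ from the consensus. The consensus is its own reverse complement, so that a match on one strand is also one on the other. Among 12 called targets with a RefSeq promoter (GRCm38.p6, 250 bases before the gene's start), 4 held a match, and 367 of 27025 genes of the table did (1.36%). Among 28 uncalled targets 4 held one. The limit of 3 was chosen after matches were seen, and targets were listed for known p53 binding, so the share describes the list. The matches are shown in capitals, read 5′ to 3′ on the strand of the gene, because these targets moved in opposite directions with similar elements. Ccng1 (1 differing base, chr11:40755422-40755521, minus strand), Zfp365 (2, chr10:67912666-67912765, minus) and Aen (3, chr7:78895897-78895996, plus) were higher in KAT, and Ckap2 (2, chr8:22185963-22186062, minus) was lower. The Ensembl start of Aen is chr7:78895854, so its stretch lies inside the gene there and is upstream by the RefSeq start only.
Ccng1: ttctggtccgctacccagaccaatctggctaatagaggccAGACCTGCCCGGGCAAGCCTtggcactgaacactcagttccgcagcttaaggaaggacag
Zfp365: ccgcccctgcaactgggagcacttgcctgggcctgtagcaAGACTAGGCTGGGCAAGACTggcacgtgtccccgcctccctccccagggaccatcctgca
Aen: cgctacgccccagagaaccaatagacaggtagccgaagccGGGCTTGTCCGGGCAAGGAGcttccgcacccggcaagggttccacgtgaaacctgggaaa
Ckap2: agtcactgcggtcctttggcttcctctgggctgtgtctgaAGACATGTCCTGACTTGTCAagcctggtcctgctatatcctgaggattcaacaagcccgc

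Of 24 tested regulators of p53, 3 were higher and 3 lower (median -0.08), again a share close to the 28.9% of all genes. Npm1, the nucleolar protein nucleophosmin, which binds ARF, stood at 629.8, 755, 550.1, 655 and 1076 in KPT and 471, 375, 323, 313 and 361 in KAT, lower in every KAT tumour (log2 difference -0.97, SE 0.17, adjusted p = 0.00118). Atm, the kinase that signals DNA breaks to p53, was at 7.83 to 20.9 in KPT and 25.2 to 30.9 in KAT (log2 difference 0.91, SE 0.24, adjusted p = 0.0110). Mdm4, a partner of MDM2 that blocks p53, was at 71.9 to 131 in KPT and 122 to 161 in KAT (log2 difference 0.51, SE 0.14, adjusted p = 0.0148), and was not called with KPT 1 and KAT 1 both left out (0.36, adjusted p = 0.0626). Weaker calls were Hipk2, a p53 kinase (0.69), the cold-shock factor Ybx1 (-0.57) and the acetyltransferase Crebbp (-0.27). The Hipk2 call ended without KPT 1, 3 or 5 or KAT 2, 3, 4 or 5, with KPAT left out of the fit or without both KPT 3 and KAT 2 (adjusted p up to 0.116). That of Ybx1 ended without KPT 1, 2 or 4 or KAT 4 or 5, under quantile normalization (log2 difference -0.32), with KPAT left out of the fit or without both KPT 1 and KAT 1 (adjusted p up to 0.125). The call of Crebbp ended without KPT 1, 2, 3 or 4 or KAT 1, 2, 4 or 5, with no minimum level, under quantile normalization, with KPAT left out of the fit, with a sex covariate, with edgeR, without both KPT 1 and KAT 1 or without both KPT 3 and KAT 2 (adjusted p up to 0.139). The number of lower regulators was 1 without KPT 1 or 2 or KAT 4 or 5, under quantile normalization or without both KPT 1 and KAT 1, and 5 without KAT 3, with array weights or with DESeq2. Among 25 INK4, cyclin D and RB genes only Cdkn2b, described above, and Cdk6, a cyclin D-dependent kinase, were called. That is 8.0%, below the 28.9% of all genes. The higher count was 0 without both KPT 3 and KAT 2, and 2 without KPT 4 or with DESeq2, and the lower count 2 without KPT 1, 2 or 4 or KAT 3, with median-of-ratios scaling, with a sex covariate or with edgeR, 3 under quantile normalization or without both KPT 3 and KAT 2, 4 without KPT 3 or with DESeq2, and 6 with array weights. Cdk6 stood at 115, 141, 137, 154 and 139.6 in KPT and 110.4, 104, 101, 89 and 83.2 in KAT, lower in KAT without overlap (log2 difference -0.49, SE 0.14, adjusted p = 0.0180).

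Across all genes tested, 4805 of 16648 differed, 2599 higher and 2206 lower in KAT. The log2 difference was 1 or more in 1774 higher genes and -1 or less in 530 lower ones. The tumours of the groups did not overlap in 2934 genes, 17.6% of those tested, and 2739 of these were called. edgeR called 4684 genes on the recovered reads and DESeq2 5712. Leaving out 1 tumour gave 3539 calls (without KAT 4) to 4660 (without KPT 5).

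**Figure D2:**
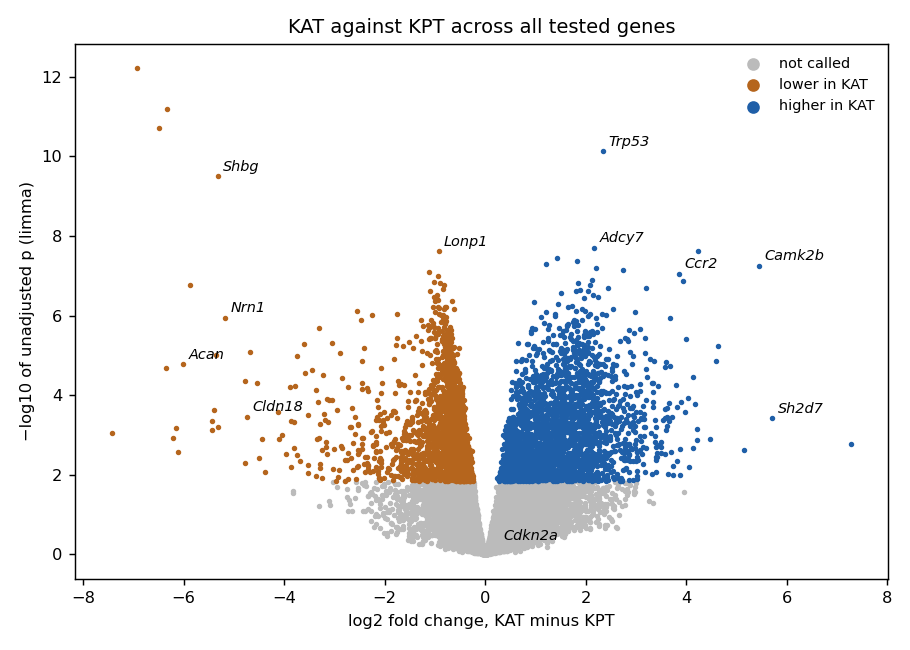
Each point is one of the 16648 tested genes, with the log2 difference of KAT minus KPT on the x axis and −log10 of the unadjusted limma p on the y axis. Blue points are the 2599 genes called higher in KAT and brown points the 2206 called lower. Trp53 and Adcy7 stand at the top of the higher side, and Cdkn2a lies among the uncalled genes.

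Fibroblast genes were higher in KAT. All 20 tested genes of the general fibroblast and matrix list were called higher (median 1.62, against 0.03 over all genes), and between 15 and 20 were called when 1 tumour was left out. The level of the list was 10.08 to 11.89 in KPT and 12.46 to 13.21 in KAT, with no overlap, and 12.05 to 13.44 in KPAT. Pdgfrb, a growth factor receptor of fibroblasts and pericytes, stood at 51.7, 62.4, 30.6, 48.7 and 50.8 in KPT and 103, 125, 137, 198 and 152 in KAT (log2 difference 1.55, SE 0.21, adjusted p = 0.000326). Fbn1, which encodes the microfibril protein fibrillin 1, stood at 130.5, 162, 31.6, 106 and 97.4 in KPT and 271, 425, 407, 549.5 and 431 in KAT (log2 difference 2.13, SE 0.36, adjusted p = 0.00105). Col6a3, a chain of type VI collagen, was at 181 ± 66.4 in KAT against 41.8 ± 18.7 in KPT (log2 difference 2.18, SE 0.38, adjusted p = 0.00113). KPT 3 was the lowest of the 10 tumours in each of the 3 genes. Of 16 myofibroblast genes 8 were higher and none lower (median 1.19), a count that was 5 without KPT 3. Col12a1, a fibril-associated collagen, was at 707 ± 277 in KAT against 155 ± 63.2 in KPT (log2 difference 2.22, SE 0.36, adjusted p = 0.000803). Postn, the matrix protein periostin, was at 301 ± 64.1 in KAT against 131 ± 43.2 in KPT (log2 difference 1.24, SE 0.21, adjusted p = 0.00101). The actin-binding tropomyosin gene Tpm1 was at 651 ± 56 in KAT against 363 ± 50.5 in KPT (log2 difference 0.85, SE 0.16, adjusted p = 0.00213).

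Inflammatory fibroblast genes moved less uniformly. Of 18 tested, 5 were higher (median 1.21), a count that was 2 without KAT 4, 3 without KPT 3, under quantile normalization or without both KPT 1 and KAT 1, and 10 with array weights. They were Ccl7 and Ccl2, which attract monocytes, the complement gene C3, and Pi16 and Dpt, markers of resident adventitial fibroblasts. The call of Ccl2 (1.95) ended without KPT 1, 2 or 3 or KAT 4 or 5, under quantile normalization, without both KPT 1 and KAT 1 or without both KPT 3 and KAT 2 (adjusted p up to 0.0975). That of Dpt (2.42) ended without KPT 3, 4 or 5 or KAT 1, 3 or 4, under quantile normalization, without both KPT 1 and KAT 1 or without both KPT 3 and KAT 2 (adjusted p up to 0.107). C3 stood at 374, 376, 206, 155 and 728 in KPT and 628, 532, 2424, 1992 and 1259 in KAT, with KAT 3 to 5 highest and an overlap through KPT 5 (log2 difference 1.86, SE 0.53, adjusted p = 0.0179). Pi16 stood at 46.6, 33.3, 2.81, 19.9 and 12.8 in KPT and 36, 48.5, 173, 291 and 148 in KAT, with the same 3 tumours highest (log2 difference 2.70, SE 0.79, adjusted p = 0.0198). The Pi16 call ended without KAT 4 (adjusted p up to 0.0540). Mesothelial genes were also among the called ones, 5 higher of 13 (median 1.48). Muc16, the mucin known as CA125, was at 7.43 ± 6.21 in KAT against 1.09 ± 1.31 in KPT (log2 difference 2.95, SE 0.65, adjusted p = 0.00437). Gpm6a, a membrane glycoprotein, was at 7.1 ± 3.81 in KAT against 1.17 ± 0.665 in KPT (log2 difference 2.49, SE 0.63, adjusted p = 0.00962). The single lower member was Krt19, a keratin shared with ductal cells (-0.79), whose call ended without KAT 3 (adjusted p up to 0.0556). The count of lower members was 0 without KAT 3, 2 without KAT 2 or without both KPT 3 and KAT 2, and 3 with array weights.

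Vessel genes were higher in part. Of 19 endothelial genes 9 were higher and none lower (median 0.89), a count that was 15 without KAT 2 or with array weights. Aplnr, the apelin receptor of sprouting vessels, stood at 11.2, 6.08, 7.07, 9.03 and 7.31 in KPT and 30.9, 39.3, 18, 63.9 and 45.3 in KAT (log2 difference 2.18, SE 0.35, adjusted p = 0.000677). Kdr, the main VEGF receptor, was at 52.1 ± 20.8 in KAT against 19.8 ± 5.21 in KPT (log2 difference 1.34, SE 0.28, adjusted p = 0.00325). Tek, the angiopoietin receptor TIE2, was at 18 ± 8.11 in KAT against 5.12 ± 2.22 in KPT (log2 difference 1.78, SE 0.39, adjusted p = 0.00429). Of 14 pericyte and smooth muscle genes 7 were higher (median 1.08), a count that was 4 without KPT 3 or 4 or KAT 3, 4 or 5. Angpt1, the ligand of TIE2, was at 18.4 ± 6.34 in KAT against 6.28 ± 2.03 in KPT (log2 difference 1.53, SE 0.33, adjusted p = 0.00421). Cspg4, the pericyte proteoglycan NG2, was at 60.0 ± 44.2 in KAT against 12.2 ± 3.22 in KPT (log2 difference 2.01, SE 0.49, adjusted p = 0.00845), with KAT 4 and 5 the highest at 116 and 99.4.

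Macrophage genes were higher in KAT in 15 of 24 cases and lower in none (median 1.28), between 14 and 16 with 1 tumour left out. The level of the list was 8.55 to 9.85 in KPT and 10.12 to 10.63 in KAT, without overlap, and 9.07 to 10.23 in KPAT. Ccr2, the receptor that brings monocytes out of the blood, stood at 3.91, 1.6, 2.43, 2.33 and 8.02 in KPT and 64.3, 31.7, 22.2, 90.6 and 48.4 in KAT, a separation that the rule choosing it required (log2 difference 3.86, SE 0.41, adjusted p = 9.22e-05). Csf1r, the receptor on which macrophages depend, stood at 56.4, 64.8, 72.7, 47.2 and 66.8 in KPT and 123, 189.6, 224, 299 and 197 in KAT (log2 difference 1.70, SE 0.24, adjusted p = 0.000382). Its ligand gene Csf1 was at 54.4 ± 15.4 in KAT against 21.1 ± 4.46 in KPT (log2 difference 1.35, SE 0.23, adjusted p = 0.00110). Trem2, a lipid-sensing receptor of tumour macrophages, was at 30.0 ± 6.54 in KAT against 10.4 ± 2.92 in KPT (log2 difference 1.53, SE 0.21, adjusted p = 0.000353). Among complement genes 13 of 20 were higher and none lower (median 1.37). They included the 3 chains of C1q, made by macrophages, C1qa, C1qb and C1qc. C1qc was at 258 ± 67.9 in KAT against 105 ± 15.1 in KPT (log2 difference 1.27, SE 0.19, adjusted p = 0.000510), and C1qb at 249.7 ± 61.6 in KAT against 109 ± 10.8 in KPT (log2 difference 1.17, SE 0.18, adjusted p = 0.000618). C3ar1, the receptor of the C3a fragment, was at 23.7 ± 6.3 in KAT against 6.63 ± 4.46 in KPT (log2 difference 1.99, SE 0.34, adjusted p = 0.00105). Neutrophil genes were called in 26.3% of cases, beside 28.9% of all genes. Of 19 tested, Mmp9 and Csf3r were higher and Cxcl2, Retnlg and Il1r2 lower (median -0.58), and the lower count was 0 without both KPT 3 and KAT 2, 1 without KPT 1 or 2 or KAT 5, and 6 with DESeq2. The Csf3r call (0.95) ended without KPT 1, 2, 4 or 5 or KAT 1, 3, 4 or 5, under quantile normalization, with KPAT left out of the fit, with edgeR or without both KPT 1 and KAT 1 (adjusted p up to 0.127), which left Mmp9 as the higher gene. That of Retnlg (-2.54) ended without KPT 1 or 2 or KAT 2, 3 or 5 or without both KPT 3 and KAT 2 (adjusted p up to 0.0748), and that of Il1r2 (-1.47) without KPT 1, 2 or 3 or KAT 1, 4 or 5, with edgeR, without both KPT 1 and KAT 1 or without both KPT 3 and KAT 2 (adjusted p up to 0.110). Cxcl2, a chemokine that draws neutrophils, stood at 9.08, 10.3, 15, 3.48 and 9.49 in KPT and 4.45, 1.15, 1.46, 5.74 and 3.02 in KAT (log2 difference -1.67, SE 0.47, adjusted p = 0.0161), and it was not called with array weights (adjusted p = 0.0574) or without both KPT 3 and KAT 2 (adjusted p = 0.0805).

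Genes of antigen presentation to helper T cells were higher as well. Of 12 MHC class II genes 9 were higher and none lower (median 1.75), a count that was 5 without KPT 3 or KAT 1 or without both KPT 1 and KAT 1. H2-DMa, which loads peptides onto class II molecules, stood at 16.8, 16.1, 12.3, 10.8 and 17.2 in KPT and 65.9, 39.6, 39.8, 92.7 and 57.3 in KAT (log2 difference 1.96, SE 0.34, adjusted p = 0.00116). H2-DMb1, its partner chain, was at 54.7 ± 22.6 in KAT against 15.3 ± 4.26 in KPT (log2 difference 1.77, SE 0.38, adjusted p = 0.00370). Ctss, the cathepsin that trims the invariant chain, was at 400.1 ± 77.4 in KAT against 179 ± 40.7 in KPT (log2 difference 1.17, SE 0.22, adjusted p = 0.00193). H2-DMb1 and H2-DMb2 are near-identical copies, so their split is uncertain. KAT 2 was the lowest KAT tumour of the list level, which ran from 8.20 to 8.93 in KPT and 8.98 to 10.83 in KAT. Dendritic cell genes were higher in 9 of 15 cases and lower in none (median 1.86). Clec9a, a marker of cross-presenting dendritic cells, was at 2.02 ± 0.534 in KAT against 0.528 ± 0.198 in KPT (log2 difference 1.86, SE 0.33, adjusted p = 0.00130). Ccl17, a chemokine of mature dendritic cells, stood at 2.81, 3.52, 0.81, 4.67 and 7.75 in KPT and 27.5, 33.1, 18, 52.9 and 40.4 in KAT (log2 difference 3.35, SE 0.60, adjusted p = 0.00136). Itgax, the integrin CD11c, was at 59.3 ± 36 in KAT against 11.5 ± 3.95 in KPT (log2 difference 2.21, SE 0.48, adjusted p = 0.00425).

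The counts of lymphocyte genes turned on KAT 2, which had the lowest level of both lists in KAT. The T and NK cell level was 2.67 to 4.48 in KPT and 2.63 to 6.0 in KAT, and the B and plasma cell level 5.34 to 6.75 in KPT and 4.56 to 8.93 in KAT. Of 13 T and NK cell genes tested, Il2ra (2.16) and Trac (2.06) were higher, a share of 15.4% beside the 15.6% of all genes, with a list median of 1.62. The count was 1 without KAT 3 or 4, under quantile normalization or with KPAT left out of the fit, 4 with a pseudocount of 8, 5 with array weights or with DESeq2, 6 with 1 added on the deposited scale, 7 without both KPT 3 and KAT 2, and 9 without KAT 2, where the median was 2.28. Trac, the T cell receptor constant region, stood at 1.05, 0.831, 0.81, 0.044 and 0.847 in KPT and 3.47, 0.824, 3.55, 3.61 and 2.2 in KAT. The call of Trac ended without KAT 3 or 4, under quantile normalization or with KPAT left out of the fit (adjusted p up to 0.0608). Of 15 B and plasma cell genes 3 were higher (median 1.61, and 2.46 without KAT 2), a count that was 5 with edgeR, 6 with array weights, 7 with DESeq2, 9 without both KPT 3 and KAT 2, and 12 without KAT 2. Cd22, an inhibitory receptor of B cells, stood at 1.91, 2.24, 3.13, 1.14 and 2.09 in KPT and 16.4, 3.84, 7.31, 9.4 and 7.41 in KAT, so that KAT 1 was highest and KAT 2 the lowest of KAT (log2 difference 1.97, SE 0.38, adjusted p = 0.00235). Of 29 chemokines and receptors 11 were higher and Cxcl2 lower (median 1.25), a count that was 7 without KPT 2 or KAT 4 or without both KPT 1 and KAT 1. Ccr1, a receptor of inflammatory chemokines on myeloid cells, was at 41.2 ± 12.5 in KAT against 11.1 ± 7.09 in KPT (log2 difference 2.05, SE 0.37, adjusted p = 0.00147). Of the 4 listed genes on chromosome 9, all were higher, and elsewhere 7 of 25 were (median 0.64). Of 21 checkpoint and NK ligand genes 8 were higher and 2 lower. Sirpa, the myeloid receptor of the CD47 signal, was at 131 ± 35.1 in KAT against 47.2 ± 9.51 in KPT (log2 difference 1.46, SE 0.18, adjusted p = 0.000190). Its ligand gene Cd47 was lower at 146 ± 27.8 in KAT against 271 ± 44 in KPT (log2 difference -0.90, SE 0.17, adjusted p = 0.00212). Cd276, the B7-H3 checkpoint molecule, was at 101 ± 16 in KAT against 43.7 ± 13.2 in KPT (log2 difference 1.24, SE 0.20, adjusted p = 0.000875). Cd274, the gene of PD-L1, did not pass (log2 difference 0.61, SE 0.39, adjusted p = 0.243).

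**Figure D3:**
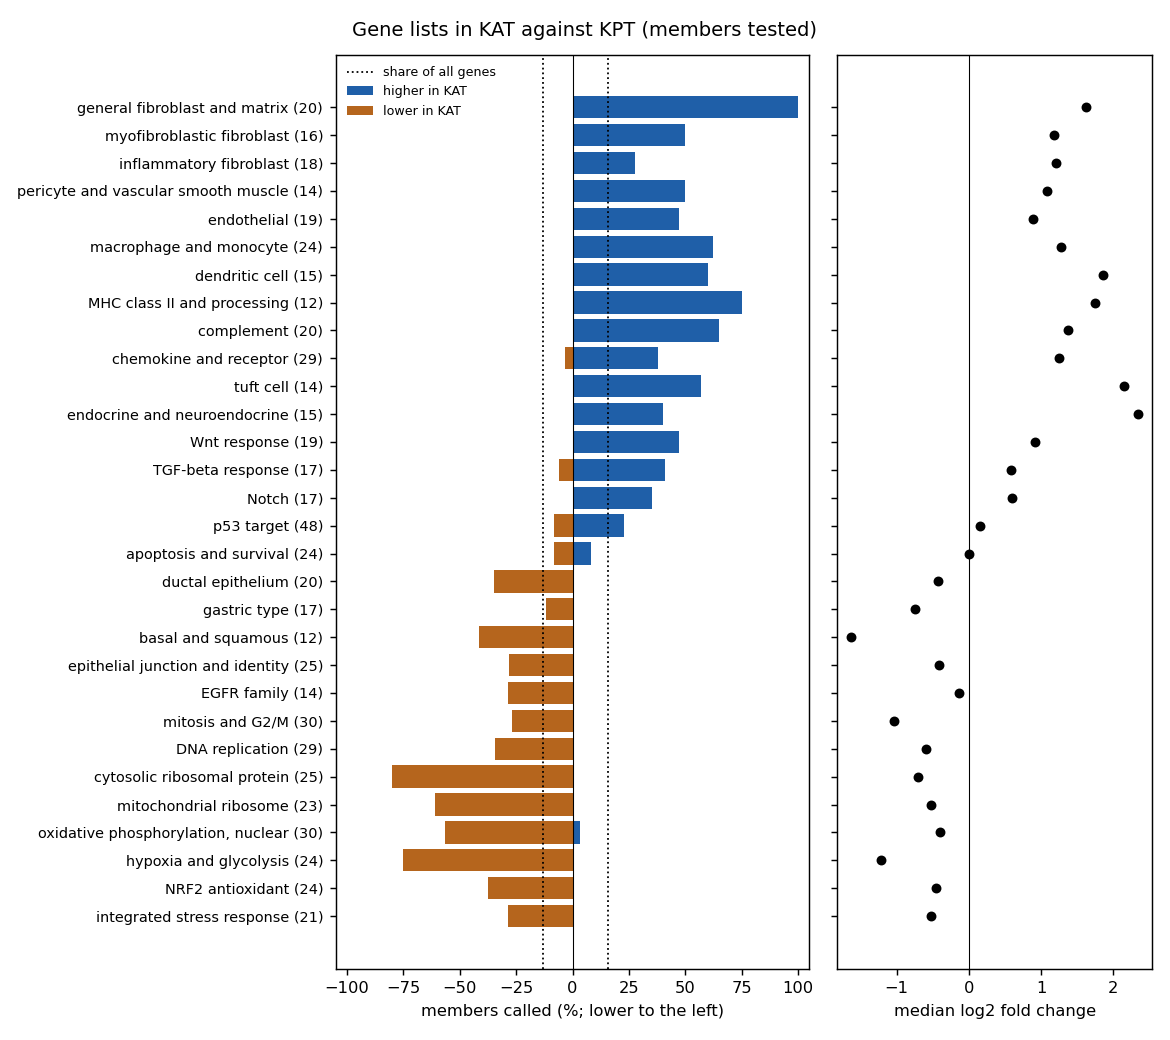
Left, the share of each list's tested members called higher (blue, to the right) or lower (brown, to the left) in KAT, in percent, with the number tested in brackets and dotted lines at the shares of all genes, 15.6% and 13.3%. Right, the median log2 difference of the members. General fibroblast genes reach 20 of 20 higher and cytosolic ribosomal protein genes 20 of 25 lower.

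Among epithelial cell types, tuft cell genes were higher in 8 of 14 cases and lower in none (median 2.14). Tuft cells are chemosensory cells that appear in injured pancreas. Sh2d7, an adaptor protein of tuft cells, stood at 0.351, 0, 0, 0.22 and 0.446 in KPT and 2.39, 4.34, 5.59, 27.7 and 33.3 in KAT (log2 difference 5.71, SE 1.26, adjusted p = 0.00447). Rgs13, a regulator of G protein signalling, stood at 0.803, 0.0639, 0, 0.0881 and 0.757 in KPT and 2.91, 2.14, 5.27, 24.5 and 39.2 in KAT (log2 difference 5.16, SE 1.42, adjusted p = 0.0150). The lineage factor gene Spib, which is not on the tuft list, stood at 1.66, 0.448, 0.324, 0.352 and 1.16 in KPT and 13.8, 3.35, 12.8, 36.4 and 37.8 in KAT (log2 difference 4.47, SE 1.14, adjusted p = 0.00999). Which cells give its reads was not tested. KAT 4 and 5 held the highest values of all 3 genes, and the rule that chose them required every KAT tumour to exceed every KPT tumour. Trpm5, the cation channel of taste and tuft cells, showed the same pair, at 2.36, 2.17, 1.24, 1.36 and 3.16 in KPT and 5.81, 6.64, 9.08, 62.3 and 73.2 in KAT (log2 difference 3.13, SE 0.97, adjusted p = 0.0256), and was not called without KPT 3 or KAT 4 or 5 (adjusted p up to 0.0681). Hpgds, a prostaglandin D synthase (2.27), Alox5, a lipoxygenase (2.28), and Vav1, an exchange factor (1.68), were higher too, and leukocytes also express these 3. The tuft transcription factor gene Pou2f3 did not pass, at 1.96, 0.192, 2.86, 0.132 and 0.49 in KPT and 0.609, 0.659, 2.4, 7.18 and 10.5 in KAT (log2 difference 1.86, SE 1.11, adjusted p = 0.221), though it did with array weights (adjusted p = 0.0291). In KPAT the level of the list was 5.70 to 8.56, beside 5.15 to 6.43 in KPT and 6.78 to 9.29 in KAT.

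Endocrine genes were higher in 6 of 15 cases (median 2.34), a count that was 3 without KAT 3, 4 or 5, 10 with DESeq2, and 11 with array weights. Isl1, a transcription factor of islet cells, stood at 0.401, 0.384, 0.378, 0.22 and 0.713 in KPT and 1.31, 1.81, 1.36, 4.13 and 3.9 in KAT (log2 difference 2.34, SE 0.47, adjusted p = 0.00256). Syp, the vesicle protein synaptophysin, stood at 0.702, 1.02, 0.162, 0.396 and 0.535 in KPT and 2.25, 1.54, 3.65, 2.61 and 1.65 in KAT (log2 difference 2.08, SE 0.44, adjusted p = 0.00348). Chga, the gene of chromogranin A, was at 0.936 to 8.98 in KPT and 9.17 to 161 in KAT (log2 difference 3.32, SE 1.12, adjusted p = 0.0378) and was not called without KPT 2, 4 or 5 or KAT 3, 4 or 5 (adjusted p up to 0.0931). Ins2, the insulin gene of beta cells, stood at 5.97, 4.73, 1.94, 3.13 and 1.47 in KPT and 1.55, 0.329, 25.2, 175 and 265 in KAT and did not pass (log2 difference 2.26, SE 1.67, adjusted p = 0.324), although it was called with array weights (adjusted p = 0.0456) and, on the recovered reads, by edgeR and DESeq2 (adjusted p = 0.0335 and 0.00190). KAT 3 to 5 held the highest Ins2 and Chga values, and how far retained islets contribute was not tested. Acinar genes, which mark the other normal part of the pancreas, showed 2 called higher of 22, Gp2 and Nr5a2. That is 9.1%, below the 15.6% of all genes. The count was 0 without KPT 3 or 4 or KAT 1, 4 or 5 or without both KPT 1 and KAT 1, and 1 without KPT 1, 2 or 5 or KAT 3, under quantile normalization or without both KPT 3 and KAT 2. Gp2, a zymogen granule protein, stood at 1.81, 10.9, 1.46, 0.572 and 2.05 in KPT and 51, 29, 6.16, 57.8 and 32.2 in KAT (log2 difference 3.74, SE 1.17, adjusted p = 0.0276) and was not called without KPT 1, 3 or 4 or KAT 1, 4 or 5, without both KPT 1 and KAT 1 or without both KPT 3 and KAT 2 (adjusted p up to 0.0905). Nr5a2, an acinar transcription factor (2.11), was not called without KPT 2, 3, 4 or 5 or KAT 1, 3, 4 or 5, under quantile normalization or without both KPT 1 and KAT 1 (adjusted p up to 0.0993).

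The lower side held genes of ductal and squamous epithelium. Of 20 ductal genes 7 were lower and none higher (median -0.43), a count that was 4 without KAT 3. Tspan8, a tetraspanin, stood at 684, 504, 416, 549 and 362 in KPT and 229, 206, 191, 296 and 292 in KAT (log2 difference -1.04, SE 0.20, adjusted p = 0.00192). Krt18, a simple epithelial keratin, was at 1535 ± 639 in KAT against 2995 ± 652 in KPT (log2 difference -1.02, SE 0.26, adjusted p = 0.0102). Elf3, an epithelial transcription factor, was at 133 ± 57.8 in KAT against 488 ± 302 in KPT (log2 difference -1.84, SE 0.48, adjusted p = 0.0115). Of 17 gastric-type genes Cldn18 and Vsig1 were lower, a share below the 13.3% of all genes (median -0.74), a count that was 4 without KAT 5. Cldn18, a tight junction claudin of gastric epithelium, stood at 186, 80.9, 224, 1444 and 198 in KPT and 1.08, 26.5, 6.63, 29 and 12 in KAT (log2 difference -4.74, SE 1.04, adjusted p = 0.00429). Vsig1, another stomach junction protein, stood at 106, 125, 143, 111 and 84.1 in KPT and 10.9, 30.1, 21, 45.5 and 45.3 in KAT (log2 difference -2.05, SE 0.37, adjusted p = 0.00137). Psca, a stem cell antigen of stomach and pancreatic cancer, stood at 451, 210.3, 265, 290.1 and 163 in KPT and 0.469, 57.4, 29.2, 64.7 and 16.9 in KAT (log2 difference -4.05, SE 0.99, adjusted p = 0.00836). The groups did not overlap in these 3 genes, which the rule that chose Cldn18 and Psca required.

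Of 12 basal and squamous genes 5 were lower and none higher (median -1.63, and -0.62 with array weights), a count that was 3 without both KPT 1 and KAT 1. Pax9, a foregut and squamous transcription factor, stood at 44.1, 21.6, 31.3, 32.4 and 54.4 in KPT and 7.64, 3.68, 0.888, 2.74 and 2.58 in KAT (log2 difference -3.60, SE 0.53, adjusted p = 0.000423). Sprr1a, a cornified envelope protein, stood at 150.3, 224, 77, 181 and 177 in KPT and 15.5, 59.9, 14, 7.57 and 5.49 in KAT (log2 difference -3.44, SE 0.57, adjusted p = 0.000916). Both separated the groups, as the rule that chose Pax9 required. Of 20 intestinal genes 4 were lower, a share above the 13.3% of all genes called lower. The count was 2, a share below 13.3%, with edgeR or without both KPT 3 and KAT 2, and 7 without KAT 1. Krt20, an intestinal and ductal keratin, was at 229 ± 98.6 in KAT against 711 ± 215 in KPT (log2 difference -1.71, SE 0.31, adjusted p = 0.00147). Cdx2, which sets intestinal identity, stood at 74.9, 5.95, 22.8, 7.4 and 16.8 in KPT and 18.6, 0.824, 0.0522, 0.0435 and 0 in KAT, so that KAT 1 lay inside the KPT range and the other 4 KAT tumours below it (log2 difference -5.45, SE 1.30, adjusted p = 0.00702). edgeR and DESeq2 did not call Cdx2 (adjusted p = 0.142 and 0.119). Of 25 junction and identity genes 7 were lower and none higher, 28.0% beside the 13.3% of all genes called lower. This count followed single tumours. It was 3 without KPT 3 or KAT 5, with KPAT left out of the fit or without both KPT 3 and KAT 2. It was 4 without KPT 1 or 2 or KAT 2, 3 or 4, under quantile normalization or without both KPT 1 and KAT 1. Crb3, a polarity protein, was at 42.2 ± 4.59 in KAT against 70.1 ± 10.5 in KPT (log2 difference -0.73, SE 0.11, adjusted p = 0.000666). The tight junction gene Ocln was at 62 ± 6.86 in KAT against 105 ± 33.5 in KPT (log2 difference -0.71, SE 0.19, adjusted p = 0.0137). Of 15 mesenchymal transition genes 8 were higher and none lower (median 0.98). The repressor gene Snai1 was at 21.2 ± 5.68 in KAT against 7.31 ± 2.69 in KPT (log2 difference 1.61, SE 0.35, adjusted p = 0.00401). Zeb2, another repressor, was at 56.4 ± 9.94 in KAT against 22.5 ± 5.09 in KPT (log2 difference 1.34, SE 0.21, adjusted p = 0.000686). The matrix gene Tgfbi was at 174 ± 36.7 in KAT against 66.4 ± 17.7 in KPT (log2 difference 1.40, SE 0.18, adjusted p = 0.000233). Fibroblasts express these genes too, and their part in the difference was not tested.

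Matrix and growth factor pathways were examined next. Of 24 matrix proteases and inhibitors 11 were higher (median 0.94), among them Adamts2, which trims procollagen, at 148 ± 52.3 in KAT against 35.7 ± 9.7 in KPT (log2 difference 2.00, SE 0.35, adjusted p = 0.00128). Adam19, a membrane protease, was at 60.8 ± 8.59 in KAT against 21.2 ± 9.65 in KPT (log2 difference 1.63, SE 0.29, adjusted p = 0.00121). Of 20 basement membrane genes 7 were higher, a count that was 3 without KPT 3 or KAT 2 or 4 or without both KPT 3 and KAT 2, and 4 without KPT 5 or KAT 3. The laminin gene Lama4 was at 70.9 ± 21.3 in KAT against 23.9 ± 6.97 in KPT (log2 difference 1.57, SE 0.27, adjusted p = 0.00105). TGF-beta genes were higher in 7 of 17 cases and lower in 1, a count that was 0 without KPT 1, 2 or 5 or KAT 1, 3, 4 or 5 or without both KPT 1 and KAT 1 (median 0.59). The receptor gene Tgfbr2 stood at 121, 180.3, 92.2, 142 and 119 in KPT and 222, 388, 468, 347 and 312 in KAT (log2 difference 1.40, SE 0.20, adjusted p = 0.000423). The ligand gene Tgfb3 was at 122 ± 35.8 in KAT against 43.6 ± 12.2 in KPT (log2 difference 1.49, SE 0.25, adjusted p = 0.000979).

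Wnt genes were higher in 9 of 19 cases and lower in none (median 0.92). Sfrp1, a secreted Wnt antagonist, stood at 30.2, 31, 3.45, 43.8 and 21.5 in KPT and 99.6, 498, 735, 549 and 251 in KAT (log2 difference 4.13, SE 0.71, adjusted p = 0.00112), and KAT 1 was the lowest of the KAT tumours. Axin2, a feedback target of the pathway, stood at 13.2, 14.4, 8.58, 14 and 19.1 in KPT and 29.2, 22.3, 42.8, 27.1 and 35 in KAT (log2 difference 1.18, SE 0.23, adjusted p = 0.00213). Of 14 Hedgehog genes 7 were higher (median 0.62), a count that was 2 without KAT 5, 3 without KPT 3 or KAT 4 or without both KPT 3 and KAT 2, and 4 without KAT 3 or under quantile normalization. The co-receptor gene Boc was at 24.8 ± 7.09 in KAT against 6.68 ± 4.92 in KPT (log2 difference 2.23, SE 0.47, adjusted p = 0.00348). The related Cdon was at 45.4 ± 12.5 in KAT against 23.5 ± 5.54 in KPT (log2 difference 0.94, SE 0.25, adjusted p = 0.0128). The ligand gene Ihh was the lower one, at 13 ± 5.96 in KAT against 57 ± 22.1 in KPT (log2 difference -2.15, SE 0.47, adjusted p = 0.00436). Of 17 Notch genes 6 were higher, a count that was 3 without KAT 4 or with KPAT left out of the fit. The target gene Heyl was at 30.9 ± 9.02 in KAT against 7.32 ± 2.77 in KPT (log2 difference 2.10, SE 0.36, adjusted p = 0.00112). The ligand gene Jag1 was at 162 ± 48.2 in KAT against 54 ± 15.7 in KPT (log2 difference 1.58, SE 0.34, adjusted p = 0.00378). In the EGFR family 4 of 14 were lower, a count that was 2 without KPT 3 or 5 or KAT 1 or 3 or without both KPT 1 and KAT 1. Erbb2, the HER2 receptor, stood at 315, 226, 233, 208 and 275 in KPT and 169, 107, 129.9, 148 and 152 in KAT without overlap (log2 difference -0.84, SE 0.15, adjusted p = 0.00121). RAS and MAPK output genes showed 3 higher and 1 lower of 24 (median 0.04), 16.7% in all beside 28.9% of all genes. The lower count was 0 without both KPT 1 and KAT 1, and 2 without KPT 5, with array weights or with DESeq2.

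Proliferation genes were lower in part. Of 30 mitosis genes 8 were lower and none higher (median -1.03), but the count was 1 without KPT 1 or 5 or KAT 2 or 3, 2 without KPT 4, with array weights or without both KPT 3 and KAT 2, 3 without both KPT 1 and KAT 1, 4 without KAT 4 or with edgeR, 5 without KPT 2 or with KPAT left out of the fit, 13 without KAT 5, and 15 under quantile normalization. The level of the list was 7.93 to 9.05 in KPT and 6.17 to 8.31 in KAT, with KAT 3 the lowest tumour. Birc5, the gene of survivin, stood at 23.7, 16.1, 15.2, 19.8 and 22.7 in KPT and 11.1, 5.71, 2.92, 11.2 and 12.9 in KAT (log2 difference -1.31, SE 0.39, adjusted p = 0.0210). Mki67, the Ki-67 gene, did not pass, at 110.0, 62.7, 57.1, 67.5 and 109 in KPT and 54.3, 23.2, 14.9, 59.1 and 96.3 in KAT (log2 difference -0.95, SE 0.46, adjusted p = 0.136). Birc5 was not called with KPT 3 and KAT 2 both left out (adjusted p = 0.0522) or with array weights (adjusted p = 0.0632). Of 29 replication genes 10 were lower and none higher (median -0.59), between 7 and 11 with 1 tumour left out and 6 with array weights. Rrm2, the inducible subunit of ribonucleotide reductase, stood at 37.9, 82.3, 52.7, 35.6 and 28.9 in KPT and 14.5, 14.8, 11.6, 14.1 and 14.1 in KAT (log2 difference -1.68, SE 0.30, adjusted p = 0.00139). The replication factor gene Rfc3 was at 18.2 ± 2.5 in KAT against 27.4 ± 2.45 in KPT (log2 difference -0.60, SE 0.12, adjusted p = 0.00230). Gins2, another, was at 7.14 ± 0.927 in KAT against 12.2 ± 1.24 in KPT (log2 difference -0.78, SE 0.16, adjusted p = 0.00303). Of 25 repair genes 8 were lower, a count that was 4 without KAT 3, and 5 without KPT 4 or 5 or KAT 1 or with KPAT left out of the fit, and 1 was higher, a count that was 0 without KPT 1, 3 or 4 or KAT 2 or 5, under quantile normalization, without both KPT 1 and KAT 1 or without both KPT 3 and KAT 2.

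Genes of the translation machinery were lower, with small and even differences. Of 25 cytosolic ribosomal protein genes 20 were lower and none higher (median -0.70), between 19 and 21 with 1 tumour left out, and the median was -0.44 under quantile normalization. The list level was 13.97 to 14.36 in KPT and 13.35 to 13.63 in KAT, without overlap, and 13.39 to 13.69 in KPAT. Rpl5, which holds MDM2 in check in ribosome stress, stood at 1398, 1554, 1240.5, 1141 and 1606 in KPT and 752, 745, 736, 703 and 650.2 in KAT (log2 difference -0.94, SE 0.11, adjusted p = 0.000168). Rpl21 stood at 1167, 1079.6, 846, 838 and 851 in KPT and 507, 477, 466, 442 and 432 in KAT (log2 difference -1.03, SE 0.11, adjusted p = 0.000116). These genes have many processed copies that can take reads, so single values are uncertain. Of 25 ribosome biogenesis and MYC target genes 8 were lower (median -0.39), a count that was 13 with array weights, with Ncl, the nucleolar protein nucleolin, at 409 ± 54.1 in KAT against 829 ± 122 in KPT (log2 difference -1.02, SE 0.12, adjusted p = 0.000155). Fbl, the rRNA methyltransferase fibrillarin, was at 70.6 ± 2.42 in KAT against 126 ± 26.7 in KPT (log2 difference -0.81, SE 0.12, adjusted p = 0.000423).

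Nuclear genes of mitochondrial proteins followed the same direction. Of 12 mitochondrially encoded genes tested, 2 were lower and none higher, 16.7% beside the 13.3% of all genes called lower. Their level did not separate the groups, at 10.24 to 12.32 in KPT and 11.03 to 11.49 in KAT. Their median was -0.29, and -0.51 to 0.02 when 1 tumour was left out. Of 23 mitochondrial ribosome genes 14 were lower and none higher (median -0.53), and the level ran from 9.27 to 9.47 in KPT and 8.93 to 9.05 in KAT. Mrpl45 stood at 65.3, 62, 67.7, 68.9 and 73.5 in KPT and 33.8, 37.8, 37.9, 32.7 and 33.7 in KAT (log2 difference -0.94, SE 0.10, adjusted p = 9.94e-05). Of 30 nuclear oxidative phosphorylation genes 17 were lower and Cox5a higher (median -0.40). The level of this list did not separate the groups either, at 10.99 to 11.40 in KPT and 10.73 to 11.03 in KAT, with KAT 1 above KPT 5. Cox4i1, a subunit of cytochrome c oxidase, was at 206 ± 25.2 in KAT against 357 ± 47.1 in KPT (log2 difference -0.80, SE 0.12, adjusted p = 0.000548). Cox5a, a subunit of the same enzyme whose gene lies on chromosome 9, was at 48 ± 8.21 in KAT against 34.7 ± 6.22 in KPT (log2 difference 0.47, SE 0.15, adjusted p = 0.0276). The call of Cox5a ended without KPT 5 or KAT 1, 2 or 4, with KPAT left out of the fit or without both KPT 3 and KAT 2 (adjusted p up to 0.0706). The count of higher members was 0 without KPT 5 or KAT 1, 2 or 4, with KPAT left out of the fit or without both KPT 3 and KAT 2, and 2 without KPT 1, under quantile normalization or with array weights. Lonp1, the mitochondrial matrix protease, had one of the smallest p-values among lower genes and stood at 196, 178, 185, 176 and 172 in KPT and 93.8, 98.9, 103, 90.9 and 89.7 in KAT (log2 difference -0.93, SE 0.09, adjusted p = 5.09e-05).

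Hypoxia and glycolysis genes were lower in 18 of 24 cases and higher in none (median -1.21), between 13 and 20 with 1 tumour left out. The level was 12.50, 12.83, 11.15, 12.08 and 12.57 in KPT 1 to 5 and 12.12, 10.72, 10.53, 10.52 and 10.49 in KAT 1 to 5, so that KAT 1 lay inside the KPT range and KPT 3 was the lowest of KPT. In KPAT it was 10.62 to 11.11. Pgk1, a glycolytic kinase, stood at 738, 939, 481, 869 and 866 in KPT and 591, 255, 156, 147 and 145 in KAT (log2 difference -1.79, SE 0.34, adjusted p = 0.00188). Aldoa, the aldolase, stood at 1367, 1424, 739, 1148 and 1214 in KPT and 982, 445, 349, 340.2 and 335 in KAT (log2 difference -1.37, SE 0.27, adjusted p = 0.00240). Pdk1, a kinase of pyruvate dehydrogenase, stood at 99.4, 143, 81.7, 76.2 and 140.2 in KPT and 86, 25.5, 39.7, 32.7 and 35.8 in KAT (log2 difference -1.38, SE 0.27, adjusted p = 0.00242). Glycolysis also includes the enolase Eno1, and its near-identical copy Eno1b stood at 166, 274, 208, 258 and 120.2 in KPT and 119.8, 0.165, 0.574, 0.392 and 0.22 in KAT (log2 difference -7.43, SE 1.80, adjusted p = 0.00790). The copies share reads, edgeR and DESeq2 did not call Eno1b (adjusted p = 0.143 and 0.0898), and their sum differed by -1.23 on the log2 scale, so the value of Eno1b alone is uncertain.

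Stress responses were lower in part. Of 24 NRF2 target genes 9 were lower and none higher (median -0.46), a count that was 3 without both KPT 1 and KAT 1, and 5 under quantile normalization. Aldh3a1, an aldehyde dehydrogenase, stood at 24.9, 42.1, 17.5, 17.7 and 4.32 in KPT and 0.75, 1.92, 0.888, 1.83 and 1.1 in KAT (log2 difference -3.75, SE 0.58, adjusted p = 0.000596). Gsr, glutathione reductase, was at 148 ± 17.9 in KAT against 258 ± 46.8 in KPT (log2 difference -0.79, SE 0.13, adjusted p = 0.000965). Of 21 integrated stress response genes 6 were lower (median -0.53), a count that was 10 with DESeq2, and 12 with array weights, with Ddit3, the gene of CHOP, at 10.4 ± 3.07 in KAT against 32.2 ± 13.2 in KPT (log2 difference -1.54, SE 0.31, adjusted p = 0.00252). Vldlr, a lipoprotein receptor, was at 21 ± 8.02 in KAT against 68.2 ± 13.8 in KPT (log2 difference -1.75, SE 0.25, adjusted p = 0.000372). Of 22 heat shock and unfolded protein genes 7 were lower and 1 higher, a count that was 2 without KPT 5 or KAT 2 or 5, under quantile normalization or with array weights (median -0.21), and the lower count was 4 under quantile normalization. Hspe1, a mitochondrial chaperonin, was at 68.2 ± 9.19 in KAT against 113 ± 20.4 in KPT (log2 difference -0.72, SE 0.13, adjusted p = 0.00134). Type I interferon genes varied widely between tumours. Their median was -1.25, yet 3 of 25 were called lower, a share below the 13.3% of all genes, and the level was 6.20 to 9.78 in KPT and 5.48 to 7.57 in KAT. The count was 5 without KPT 4 or under quantile normalization, and 8 with DESeq2. Oasl1, an interferon-induced gene, stood at 154, 21.2, 35, 52.5 and 54.6 in KPT and 10.6, 6.09, 9.66, 15.9 and 14.5 in KAT (log2 difference -2.22, SE 0.59, adjusted p = 0.0123), and it was not called without both KPT 1 and KAT 1 (adjusted p = 0.0501). Apoptosis and survival genes showed 2 higher and 2 lower of 24, below the share of all genes, a count that was 1 without KPT 2, 3 or 5 or KAT 1, 3, 4 or 5 or without both KPT 3 and KAT 2 for the higher ones and 4 with array weights for the lower.

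**Figure D4:**
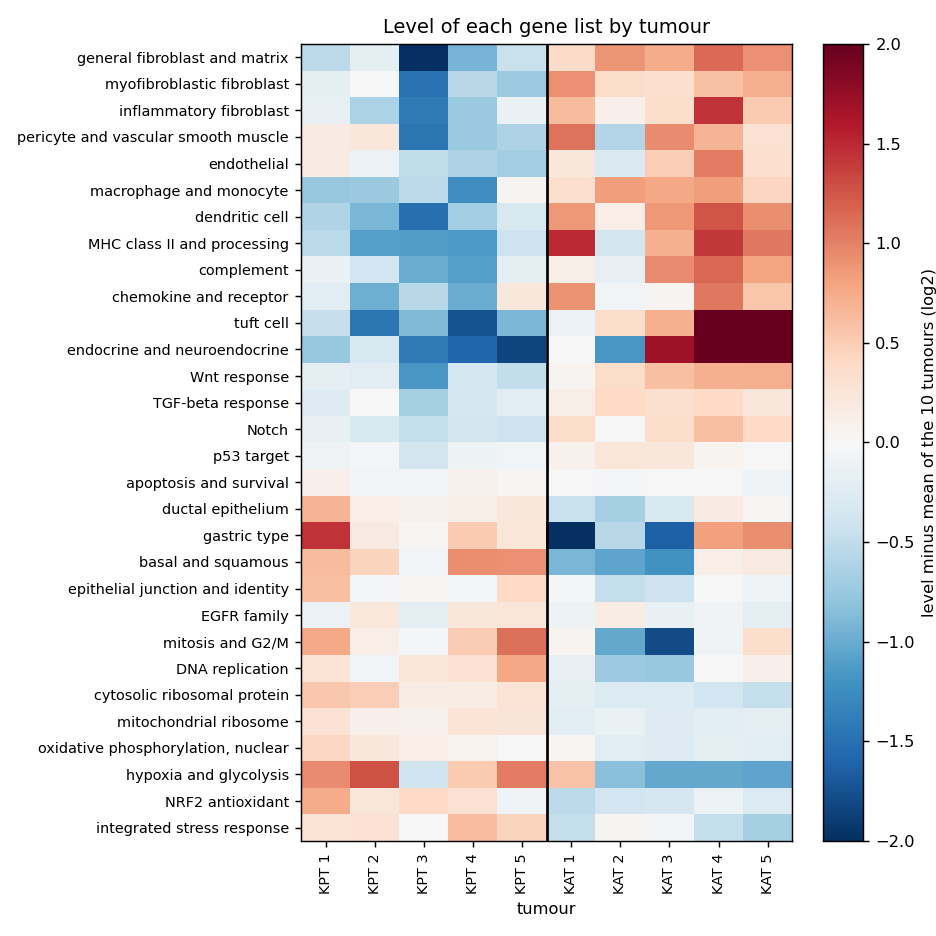
Level of each gene list (rows) in the 10 tumours (columns), as the mean over members of log2(normalized count + 1) minus the mean of the 10 tumours, red above and blue below, with colours capped at 2 either way. General fibroblast and macrophage lists are red in all 5 KAT tumours, tuft and endocrine lists are highest in KAT 4 and 5, and hypoxia genes in KAT 1 resemble KPT.

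The largest lower differences outside the groups above belonged to secreted and developmental genes. Acan, the cartilage proteoglycan aggrecan, stood at 40.8, 67.9, 90.2, 55 and 81.8 in KPT and 5.34, 6.26, 0.574, 0.392 and 0.0549 in KAT (log2 difference -6.01, SE 0.97, adjusted p = 0.000771). Nrn1, a neurite-promoting protein, stood at 65.1, 111, 175, 93.9 and 156 in KPT and 2.48, 7.14, 6.58, 1.26 and 1.87 in KAT (log2 difference -5.17, SE 0.66, adjusted p = 0.000248). Muc5b, a secreted airway and gastric mucin, stood at 152, 9.34, 2.05, 9.16 and 253 in KPT and 1.41, 0.769, 0.522, 0.261 and 0.165 in KAT (log2 difference -5.43, SE 1.22, adjusted p = 0.00497), with KPT 1 and 5 far above the other KPT tumours. Foxa1, a pioneer factor of endoderm, stood at 103, 33.2, 55.5, 25.4 and 187 in KPT and 22.6, 2.64, 2.3, 4.13 and 2.03 in KAT (log2 difference -3.89, SE 0.71, adjusted p = 0.00157). Ttc6, its neighbour on chromosome 12, was at 5.99 to 15.8 in KPT and 0.0549 to 1.41 in KAT (log2 difference -4.67, SE 0.71, adjusted p = 0.000532). Nccrp1, an F-box protein of squamous epithelium (-3.96), was not called with KPT 3 and KAT 2 both left out (adjusted p = 0.0547). The groups did not overlap in any of these genes, by the rule that chose them.

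The largest higher differences beside the tuft genes and Spib were found in neuronal, matrix and macrophage genes. Camk2b, a calmodulin-dependent kinase of neurons, stood at 1.05, 0.256, 0.27, 0.44 and 1.2 in KPT and 30.6, 42.4, 17.6, 21.3 and 21.4 in KAT (log2 difference 5.45, SE 0.55, adjusted p = 7.83e-05). Retnla, a product of alternatively activated macrophages, stood at 1.0, 0.639, 0.216, 0.352 and 1.16 in KPT and 12.4, 2.75, 10.2, 72.1 and 31.1 in KAT (log2 difference 4.60, SE 0.73, adjusted p = 0.000702). Mgl2, a macrophage lectin, stood at 3.86, 2.17, 0.594, 3.17 and 2.76 in KPT and 25.9, 18.9, 28.9, 72.8 and 49.2 in KAT (log2 difference 3.99, SE 0.57, adjusted p = 0.000376), and summed with its near copy Clec10a the difference was 2.89. The matrix gene Abi3bp was at 1.24 to 9.4 in KPT and 27.7 to 193 in KAT (log2 difference 4.03, SE 0.79, adjusted p = 0.00230). Cilp, another, was at 4.23 to 27.5 in KPT and 71.4 to 353 in KAT (log2 difference 3.90, SE 0.78, adjusted p = 0.00263). Hepacam2, an adhesion protein, was at 0.162 to 1.45 in KPT and 2.75 to 30.8 in KAT (log2 difference 3.98, SE 0.84, adjusted p = 0.00367). Bglap3, an osteocalcin-like gene with near copies and so an uncertain value, was at 0 to 0.881 in KPT and 1.43 to 23.2 in KAT (log2 difference 4.13, SE 1.12, adjusted p = 0.0138). By smallest p, Adcy7, an adenylyl cyclase of leukocytes, stood at 17.7, 24.3, 21.9, 25.8 and 29.9 in KPT and 85, 101, 106, 116 and 128 in KAT (log2 difference 2.17, SE 0.20, adjusted p = 5.09e-05). Arl10, a small GTPase (1.44), Arhgef6, an exchange factor on chromosome X (1.83), and Fyco1, an autophagosome transport adaptor on chromosome 9 (1.20), followed. Lower by smallest p were also Gins4, a replication factor (-1.13), and the mitochondrial ribosome gene Mrps35 (-0.90).

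A few genes were present in one group and nearly absent from the other. With at most 3 reads in every tumour of one group and more than 20 in every tumour of the other, 6 genes were found. Trim58, a ubiquitin ligase of red cell precursors on chromosome 11, stood at 5.32, 7.55, 4.21, 3.65 and 2.23 in KPT and 0.0469, 0, 0, 0 and 0.11 in KAT. Pramef12, on chromosome 4, stood at 0.0502, 0.0639, 0.054, 0 and 0.0446 in KPT and 1.45, 1.7, 1.31, 1.39 and 2.64 in KAT. Shbg, described with its neighbours, and the processed pseudogenes Gm11868, Gm15920 and Gm13092 were the other four, all present in KPT. Cep85, a centrosome gene of chromosome 4, chosen after its values were seen, stood at 19.2, 30.9, 37.2, 147 and 21.8 in KPT and 497, 514, 484, 479 and 408 in KAT (log2 difference 3.67, SE 0.47, adjusted p = 0.000251), a narrow range in KAT.

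Position in the genome also divided the groups. For each chromosome the median over its genes of the log2 level, relative to the mean of the 10 tumours and centred in each tumour, was taken. Chromosome 9 stood at -0.33, -0.04, -0.36, -0.11 and -0.21 in KPT 1 to 5 and 0.14, 0.17, 0.17, 0.21 and 0.21 in KAT 1 to 5, so that all KAT tumours lay above all KPT tumours. In KPAT 1 to 5 it stood at 0.00, 0.08, 0.13, 0.17 and 0.21. Of its 935 tested genes 294 (31.4%) were higher in KAT and 48 (5.1%) lower, with a median log2 difference of 0.42. On all other chromosomes together 14.7% were higher and 13.7% lower. Chromosome 8 differed in the other direction, at 0.08, 0.07, 0.16, -0.02 and 0.21 in KPT 1 to 5 and -0.08, -0.07, -0.11, -0.11 and -0.13 in KAT 1 to 5, with 22.8% of its 895 genes lower and 10.9% higher. Chromosomes 5, 15 and 19 also separated the groups, with median log2 differences of -0.07, -0.09 and -0.11. On chromosome 6, KAT tumours ranged from -0.11 in KAT 5 to 0.17 in KAT 1.

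**Figure D5:**
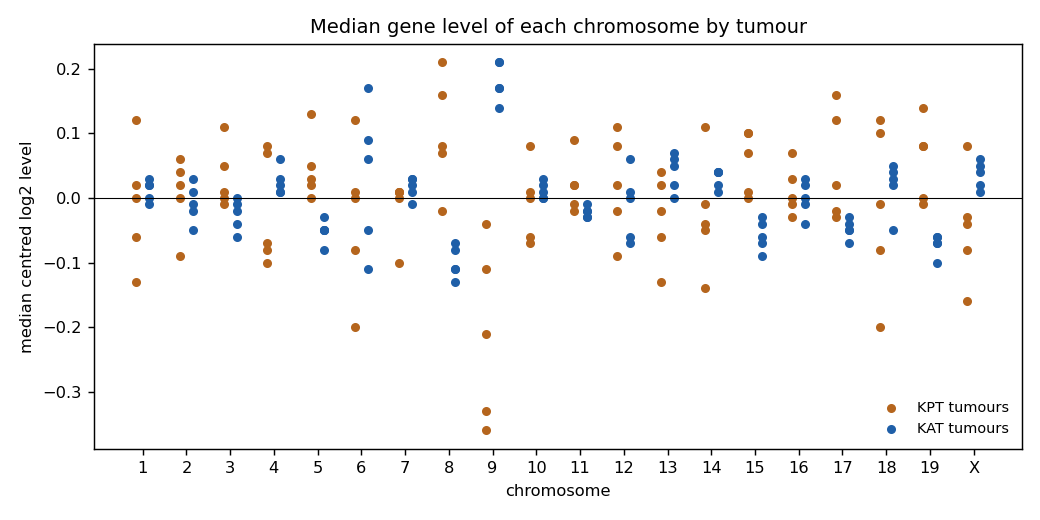
Median over the genes of each chromosome (x axis) of the log2 level relative to the mean of the 10 tumours, centred in each tumour (y axis), with KPT tumours in brown and KAT tumours in blue. On chromosome 9 the KAT tumours lie at 0.14 to 0.21 and the KPT tumours at -0.36 to -0.04.

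The difference on chromosome 9 was not even along its length. In windows of 15 Mb, the first, from 0 to 15 Mb, had 1 higher and 11 lower of 46 genes (median log2 difference -0.39). There the KPT tumours stood at -0.37, 0.27, -0.51, 0.82 and 0.56, with KPT 2, 4 and 5 above every KAT tumour. From 15 to 30 Mb 8 were higher and 25 lower of 96. In each of the 7 windows from 30 Mb on, the median was between 0.35 and 0.71, and at most 3 genes were lower. The last window, from 120 Mb, had 28 higher and 0 lower of 58 genes (median 0.71), with KPT tumours at -0.37, -0.09, -0.46, -0.44 and -0.37 and KAT tumours at 0.33, 0.29, 0.37, 0.36 and 0.38. From 90 to 105 Mb KPT 4 stood at 0.32 and the other KPT tumours between -0.59 and -0.25. Several genes described above lie on this chromosome, among them Atm, Ccr1, Ccr2, Col12a1, Tpm1, Tgfbr2, Cspg4, Cilp, Sh2d7, Fyco1 and Cox5a. They make up 3 of the 12 largest higher genes. Without chromosome 9 members, the fibroblast list kept 19 of 19 genes higher and the macrophage list 14 of 23.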

How the data were processed

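RNA from whole tumours was sequenced, and the authors deposited 1 table of signal values for 15 tumours. Each value is a whole read count divided by 1 factor per library, as the values show. Alignment with HISAT2 2.0.4 to mm10 (GRCm38) is named in the submitters' processing notes, while counter, annotation and strand setting were not given there. Whole reads were recovered for 100.0% of values (within 0.01). Values were multiplied by 19.478, the geometric mean of the library factors, which gives the normalized counts the design assumed, and 1 was added before log2. Ensembl ids were joined to symbols for 20574 of 20636 genes. Genes with a mean normalized count of at least 10 entered limma 3.58.1 (R 4.3.3) with KPT, KAT and KPAT as groups, trended eBayes and Benjamini-Hochberg adjustment. edgeR 4.0.16 and DESeq2 1.42.0 were run on the recovered reads, edgeR calling 4684 genes. The fit was tested on simulated data.

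Groups came from the labels. Members and lists were chosen with earlier results of these data known. Named genes were the floxed genes and their neighbours, the 12 largest changes in each direction among called genes whose tumours did not overlap and whose mean reached 100 normalized counts in the higher group, predicted genes passed over, the 6 smallest p in each direction, and up to 3 genes of each list with the smallest p, and every called gene of the p53, INK4 and neighbour lists. Other genes named were chosen after their values were seen. Some genes and an allele that these rules would name are not reported here. Library totals set the precision, and floors of 3 reads cover counting error only. Alternatives are given in the closing section. Promoters came from RefSeq.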

Additional observations from a re-analysis of the deposited data

Results flagged for a closer look

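Each described gene or list, except the mitochondrially encoded list, gave 1 group of 5 tumours in KPT and 1 in KAT. Among these 452 groups, 39 had a highest or lowest tumour far from the other 4 against the range of the group. The limit used flags about 1 in 20 groups of independent, normally distributed values. These groups reuse the same 10 tumours, and levels in deposited units need not be normal, so the rate of flags by chance is not known here. No explanation was weighed. KPT 3 stood below its group, in deposited units, at 216 for Cdkn2a and 2.7 for Snai1. KPT 3 stood below its group, in mean log2 level of the list, at 8.88 for the p53 target list and 6.93 for the Hedgehog list. KAT 1 stood below its group, in deposited units, at 32.9 for Ak1. KAT 1 stood above its group, in deposited units, at 18.6 for Cdx2, 591 for Pgk1, 982 for Aldoa, 86 for Pdk1, 119.8 for Eno1b and 22.6 for Foxa1. KAT 1 stood above its group, in mean log2 level of the list, at 10.26 for the intestinal list, 9.53 for the acinar list, 11.03 for the oxidative phosphorylation, nuclear list and 12.12 for the hypoxia and glycolysis list. KAT 2 stood above its group, in deposited units, at 52 for Aen, 17.1 for Psrc1 and 59.9 for Sprr1a. KAT 2 stood below its group, in mean log2 level of the list, at 4.56 for the B and plasma cell list. KAT 3 stood below its group, in deposited units, at 554 for Tpm1, 11.6 for Rrm2 and 66.4 for Fbl. KPT 5 stood above its group, in deposited units, at 3.39 for Muc16, 14.3 for C3ar1, 18.4 for Itgax and 31.8 for Rfc3. KPT 1 stood above its group, in deposited units, at 22 for Retnlg, 74.9 for Cdx2, 97.6 for Tgfbi, 154 for Oasl1 and 32.9 for Nccrp1. KPT 1 stood above its group, in mean log2 level of the list, at 13.01 for the ductal epithelium list and 11.22 for the intestinal list. KAT 4 stood above its group, in deposited units, at 216 for Mmp9. KPT 4 stood below its group, in deposited units, at 0.044 for Trac. KPT 4 stood above its group, in deposited units, at 1444 for Cldn18 and 147 for Cep85. KPT 2 stood above its group, in deposited units, at 10.9 for Gp2. KAT 5 stood above its group, in deposited units, at 0.0549 for Gm13092.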

How the results depend on the processing

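Under 26 alternatives (pseudocounts, minima, scalings, tumour weights, tools, terms for sex or replicate, tumours left out), 135 of 176 described genes kept their direction and side of the threshold throughout, and 41 changed in at least 1. The count of calls stayed between 3539 and 6390. edgeR called 4684 genes and DESeq2 5712, and the cause of these shifts was not tested. Same-numbered tumours of the groups had correlations of deviations of 0.246, 0.103, 0.009, -0.065 and 0.185. Tumours of different numbers had -0.323 to 0.266, a range that holds all of these. A fit with the replicate block called 4313 genes, 2331 higher and 1982 lower. With that block Acap1, Chga, Crebbp, Csf3r, Dpt, Haus6, Kitl and Zfp365 were not called (adjusted p 0.0521 to 0.0819), and it ended no other call of a described gene.

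Directions turned in genes that were not called. Cdkn2a gave -0.45 with array weights and -0.10 without KPT 3 and KAT 2. Myc gave -0.19 with array weights, -0.016 without KPT 1 and KAT 1, -0.034 without KPT 3 and KAT 2, and -0.048 without KAT 2, the lowest of its leave-one-out values, which reached 0.62. Cdkn1a gave -0.17 with array weights, -0.055 with edgeR, -0.089 with DESeq2, -0.27 without KPT 3 and KAT 2, and -0.25, -0.031 and -0.088 without KPT 3, KPT 4 or KAT 1.

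Some list medians moved by more than the spread. The dendritic cell median was 1.38 with a pseudocount of 8, 1.29 with a minimum mean of 50, 1.31 under quantile normalization, 1.34 without KPT 3 and KAT 2, and 1.16 on the deposited scale. The immune checkpoint and NK ligand median was 0.75 with a pseudocount of 8, 0.75 with a minimum mean of 50, 0.47 under quantile normalization, 0.77 with array weights, 0.73 without KPT 3 and KAT 2, 0.60 on the deposited scale, and 0.60 to 0.87 when 1 tumour was left out. The basal and squamous median was -0.62 with array weights and -0.91 on the deposited scale. The EGFR family median was -0.34 with the higher minimum, -0.31 under quantile normalization and -0.31 with array weights. The cytosolic ribosomal protein median was -0.44 under quantile normalization. The mitochondrial ribosome median was -0.43 without KPT 1 and KAT 1, and -0.56 to -0.38 when 1 tumour was left out. The median of the Cdkn2a neighbourhood on chromosome 4 was -0.056 without KPT 3 and KAT 2, and the apoptosis and survival median 0.071 under quantile normalization. The cause was not tested for any of these. Counts in lists of few called members follow single tumours, and genes at a few reads are limited by depth.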
